A study of Mus musculus with 2 samples.

Results

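The cells described are endothelial cells of mouse hearts that carried transcripts of at least 3 of 6 genes of the angiogenic, tip-like program, Apln, Kit, Mest, Adm, Pgf and Fscn1. They were found by rule among barcodes with at least 500 detected genes and at most 10% mitochondrial transcripts. A barcode had to hold at least 4 molecules (UMIs) summed over the endothelial genes Pecam1, Cdh5, Egfl7 and Cldn5. This sum had to exceed that of the fibroblast genes Pdgfra, Dcn, Col1a1 and Col3a1. It could hold UMIs of at most 2 of 8 cell cycle genes, Mki67 and Top2a among them, so that dividing cells were kept apart. The rule found 393 cells in db/db and salt and 559 in db/+, 952 of 10427 barcodes in all. They are called marker-positive cells below, and the 2401 and 2703 barcodes that met the same filters with fewer than 3 markers are the other endothelial cells. The markers come from measured expression, so the levels of those 6 genes, and every other difference between marker-positive and other endothelial cells, are a description and carry no test.

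The hearts came from male mice of db strain genotypes, 4 per genotype, and were depleted of heart muscle cells and of CD45-positive leukocytes before single-cell RNA sequencing. The first group, db/db and salt, carried the mutated leptin receptor allele on both copies, known to cause obesity and diabetes, and was given 1% salt. The title of the series names it an HFpEF model, a form of heart failure in which the share of blood ejected is kept. The second, db/+, carried the allele on 1 copy, and no salt treatment is labelled for it. The sources used here give neither ages nor whether hearts were pooled. Each group is 1 library, so nothing could be tested between groups, no p-value is given, and genotype, salt and library cannot be told apart.

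There were 4751 barcodes with 40974634 UMIs in db/db and salt and 5676 with 44935235 in db/+, and 4144 and 4948 of them passed the filters. The libraries had 7 barcode sequences in common, 1 of them among marker-positive cells. Levels are in CPM, the UMIs of a gene summed over a class of cells in 1 library and scaled to a common total. Ratios are log2 after adding 10 CPM to both sides, so those of low genes are understated. Intervals are 95% intervals, exact Poisson for levels and exact binomial (Clopper-Pearson) for shares. They cover counting error only. Lepr, the mutated gene, had 1 UMI in the marker-positive cells of each library, too few to check the genotype labels.

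Tip cells lead the growth of new capillaries. They extend filopodia along a gradient of vascular endothelial growth factor, dissolve and rebuild basement membrane, and hold the stalk cells behind them back through Notch ligands. Apln encodes apelin, a secreted peptide of sprouting endothelium, and Adm encodes adrenomedullin, a peptide that widens vessels and tightens endothelial junctions. Pgf is placental growth factor, a ligand of the receptor Flt1. Kit is the receptor of stem cell factor, Mest is an imprinted gene of the hydrolase family, and Fscn1 bundles actin in filopodia. In the adult heart most endothelial cells are quiescent capillary cells that take up fatty acids, and few carry this program.

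The share of endothelial cells that was marker-positive was smaller in the db/db and salt library. They were 14.1% (12.8 to 15.4%, 393 of 2794) of endothelial barcodes in db/db and salt, against 17.1% (15.9 to 18.5%, 559 of 3262) in db/+, a log2 ratio of -0.28. Of all kept barcodes they were 9.48% in db/db and salt and 11.3% in db/+. Finding 3 markers is easier in a deep barcode, and marker-positive cells had a median of 12596 UMIs in db/db and salt and 13103 in db/+, against 5212 and 4900 in other endothelial cells of the same libraries. Endothelial barcodes of at least 4000 UMIs were also reduced at random to 4000, and the marker and cycle conditions applied again. Shallower barcodes, 839 of 2794 (30.0%) in db/db and salt and 1055 of 3262 (32.3%) in db/+, were left out. The shares were then 8.12% (6.94 to 9.41%) in db/db and salt and 10.6% (9.32 to 11.9%) in db/+. At 2000 UMIs they were 3.04% (2.42 to 3.77%) in db/db and salt and 4.17% (3.48 to 4.94%) in db/+. The db/db and salt share was the lower in 100 of 100 random reductions at either depth. These redraw UMIs of the same cells, so their agreement covers neither counting error of cells nor spread between libraries. Among barcodes of 8000 to 20000 UMIs alone, marker-positive cells were 27.5% (24.5 to 30.7%, 226 of 821) in db/db and salt and 30.5% (27.5 to 33.6%, 283 of 928) in db/+, a log2 ratio of -0.15. The log2 ratios were -0.38 at 4000 UMIs (counting SE 0.14) and -0.45 at 2000 UMIs (counting SE 0.20), while the ratio at 8000 to 20000 UMIs had a counting SE of 0.11 and lay within 2 of them. The ratio was smaller where 2 markers were needed in place of 3, at -0.066, and with at most 5% mitochondrial UMIs, at -0.14.

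**Figure D1:**
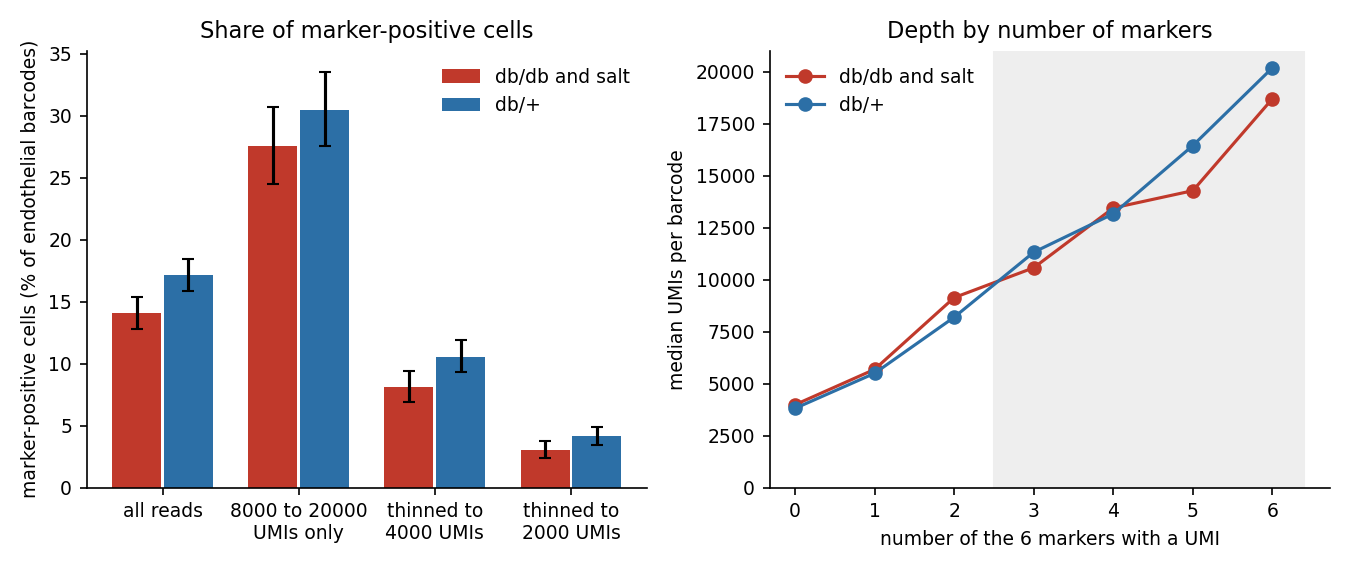
Left, marker-positive cells as a percentage of endothelial barcodes in each library, as deposited and at 3 settings of depth, with Clopper-Pearson 95% intervals as bars; the db/db and salt share is the lower in each pair. Right, median UMIs per endothelial barcode by number of the 6 markers with a UMI, with the marker-positive range shaded; depth is higher with each added marker in both libraries.

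The 6 markers were not found equally often, and their mix differed between the libraries. Fscn1 was found in 97.2% of marker-positive cells in db/db and salt and 97.1% in db/+, and Mest in 81.4 and 83.5%. Adm was found in 64.6% in db/db and salt and 65.1% in db/+, and Pgf in 16.8 and 18.2%. Apln was found in 55.5% of marker-positive cells in db/db and salt, against 66.0% in db/+. Kit went the other way, at 63.1% in db/db and salt and 50.8% in db/+. The most common sets were Mest, Adm and Fscn1 (52 cells) and Apln, Kit, Mest, Adm and Fscn1 (49 cells) in db/db and salt. In db/+ they were Apln, Mest, Adm and Fscn1 (74 cells) and Mest, Adm and Fscn1 (69 cells). Just 3 markers were found in 196 cells of db/db and salt and 262 of db/+, 4 in 107 and 173, 5 in 68 and 93, and all 6 in 22 and 31.

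Levels of the 6 markers, given as a description, showed where each was low outside the marker-positive cells. Apln was at 165 CPM in marker-positive cells of db/db and salt and 177 CPM in db/+, against 6.83 and 13.4 CPM in other endothelial cells. Kit was at 97.4 CPM in db/db and salt and 75.4 CPM in db/+, and Mest at 216 and 206 CPM. These compare with 11.1 and 7.09 CPM of Kit, and 34.9 and 32.1 CPM of Mest, in other endothelial cells. Adm stood at 134 and 126 CPM and Fscn1 at 339 and 350.2 CPM in marker-positive cells of db/db and salt and db/+. Pgf, the least frequent, was at 37.5 CPM in db/db and salt and 49.7 CPM in db/+, below its 82.5 and 83.5 CPM in fibroblasts of the same libraries. With cells reduced to 2000 UMIs, an Apln UMI was found in 21.5% of marker-positive cells in db/db and salt and 26.5% in db/+, against 0.165 and 0.733% of fibroblasts, which should lack it. Since Apln UMIs helped choose the cells, this gap follows from the rule. Fibroblast barcodes had median depths of 11993 UMIs in db/db and salt and 9635.5 in db/+. Fibroblasts held 67.1 and 83.6 CPM of Adm in db/db and salt and db/+, with UMIs of Adm in 10.0 and 12.1% of cells and of Pgf in 14.2 and 14.8%.

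**Figure D2:**
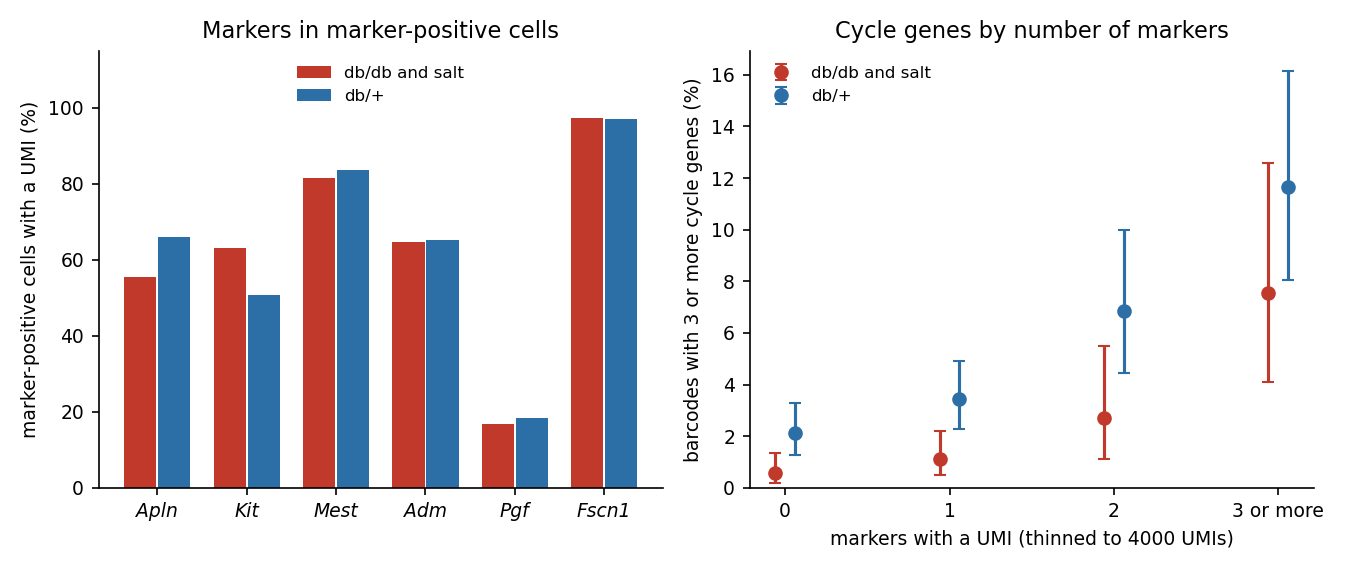
Left, percentage of marker-positive cells with a UMI of each of the 6 markers, in 393 cells of db/db and salt and 559 of db/+; Apln is less and Kit more frequent in db/db and salt. Right, percentage of endothelial barcodes, reduced to 4000 UMIs, with UMIs of 3 or more of 8 cycle genes, by number of markers, with Clopper-Pearson 95% intervals; the share is highest with 3 or more markers in both libraries.

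Promoter sequences are shown because the ligands that define the cells, Apln and Adm, are known targets of hypoxia-inducible factors, and Cxcl9, described below, is a known target of interferon and NF-kappa-B. Windows run from 250 bases before to 50 after the gene start and are RefSeq sequence of GRCm38.p6, read 5′ to 3′ on the strand of the gene. Capitals mark matches, on either strand, to the hypoxia response element cores ACGTG and GCGTG in Apln and Adm, and to the kappa-B site GGGATTTCC and the interferon-stimulated response element core (GAAA, 2 bases of any kind, GAAA) in Cxcl9. The Apln window (chrX:48034804-48035103, minus strand) held no match, the Adm window (chr7:110627407-110627706, plus strand) 2 matches to GCGTG read on the other strand, and the Cxcl9 window (chr5:92328030-92328329, minus strand) 1 match to GGGATTTCC and none to the interferon core.
Apln: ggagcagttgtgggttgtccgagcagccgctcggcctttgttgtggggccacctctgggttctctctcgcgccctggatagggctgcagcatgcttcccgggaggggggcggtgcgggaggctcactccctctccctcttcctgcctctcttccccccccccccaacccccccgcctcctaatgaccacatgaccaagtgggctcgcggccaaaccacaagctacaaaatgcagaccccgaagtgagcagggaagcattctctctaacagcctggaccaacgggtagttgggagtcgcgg
Adm: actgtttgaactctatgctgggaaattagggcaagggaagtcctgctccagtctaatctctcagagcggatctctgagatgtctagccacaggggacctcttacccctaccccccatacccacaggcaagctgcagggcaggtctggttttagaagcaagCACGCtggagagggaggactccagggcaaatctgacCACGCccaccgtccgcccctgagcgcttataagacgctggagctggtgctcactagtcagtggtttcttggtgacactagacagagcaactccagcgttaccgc
Cxcl9: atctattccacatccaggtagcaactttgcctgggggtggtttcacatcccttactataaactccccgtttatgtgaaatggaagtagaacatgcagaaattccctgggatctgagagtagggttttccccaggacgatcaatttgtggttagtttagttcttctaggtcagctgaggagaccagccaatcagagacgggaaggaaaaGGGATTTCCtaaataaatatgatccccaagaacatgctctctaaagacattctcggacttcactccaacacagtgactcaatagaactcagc
Of 32851 promoter windows of the same length, 43.77% held either hypoxia core, so the matches in Adm are common; ACGTG was in 19.62% and GCGTG in 32.39%. A palindrome CACGTG counts as ACGTG on both strands. GGGATTTCC was in 0.32% of windows and the interferon core in 3.44%. A match describes these letters and is no evidence of a bound factor.

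Compared with other endothelial cells, marker-positive cells had more transcripts of several basement membrane and actin genes and fewer of arterial genes, in both libraries alike. Of 8342 genes measured, without the genes of the rule, 79 (0.947%) were at least 1.5-fold higher in both libraries and 177 (2.12%) at least 1.5-fold lower. Trp53i11, a gene of the tip cell list, was at 472 CPM in marker-positive cells of db/db and salt and 334 CPM in db/+, against 190.4 and 138 CPM in other endothelial cells. Its log2 ratios of marker-positive over other cells were 1.27 in db/db and salt and 1.22 in db/+. Ift122, a part of the transport machinery of cilia, was at 114 CPM in marker-positive cells of db/db and salt and 221 CPM in db/+, against 29.5 and 61.2 CPM in other cells (log2 ratios 1.66 and 1.70). Nrp2, a co-receptor for VEGF-C and semaphorins, stood at 641 and 639 CPM in marker-positive cells and 296 and 328 CPM in others (1.09 and 0.94). Tmsb10, which binds actin monomers, reached 1181 CPM in db/db and salt and 1189 CPM in db/+, against 531 and 544 CPM in others (1.14 and 1.11).

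The other leading genes were of several kinds. Pxdn and Nid2, which crosslink and connect basement membrane, had log2 ratios of 1.03 and 0.96 in db/db and salt and 0.98 and 0.83 in db/+. Col15a1, a collagen at the outer face of basement membrane, was at 196 CPM in marker-positive cells of db/db and salt and 301 CPM in db/+, against 73.5 and 167 CPM in others (1.30 and 0.82). Fibroblasts held more of it, at 1238 and 1112 CPM. Dapk2, a death-associated kinase (1.07 and 1.05), Arl4c, a small GTPase (1.11 and 0.98), the adhesion molecule Pcdh17 (0.94 and 0.94) and the cyclic AMP phosphodiesterase Pde4b (0.95 and 0.88) were also higher. So were Fxyd6, a sodium pump regulator (0.89 and 0.88), Nos2, the inducible nitric oxide synthase (0.88 and 0.83), and the prion protein gene Prnp (0.92 and 0.82), whose UMIs can overlap those of Prn on the same strand. All 15 leading genes, Cxcl9 included, were still at least 1.5-fold higher in both libraries among barcodes of 8000 to 20000 UMIs, where the smaller of the 2 ratios ran from 0.66 to 1.56.

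**Figure D3:**
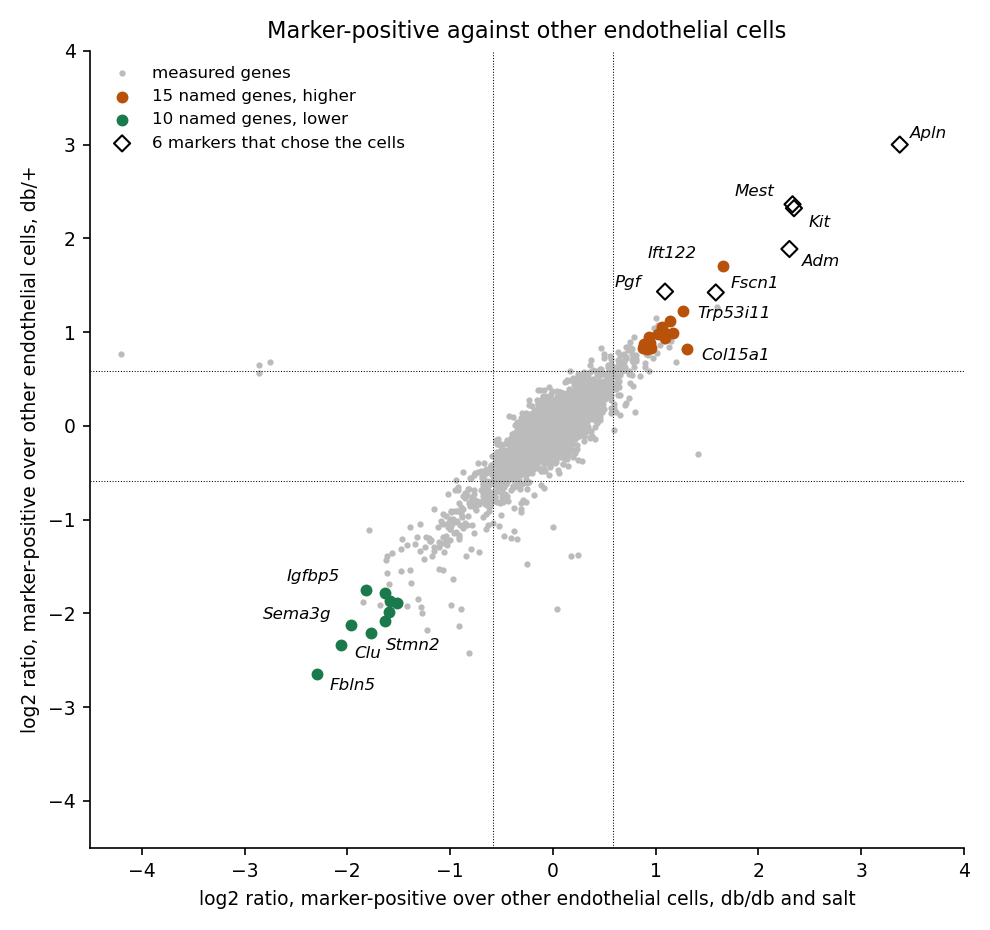
Log2 ratio of marker-positive over other endothelial cells for each measured gene, in db/db and salt (x axis) and db/+ (y axis), with dotted lines at 1.5-fold. The 15 higher and 10 lower named genes lie past the lines in both libraries, and the open diamonds are the 6 markers that chose the cells, whose place follows from the rule.

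The tip cell name was checked against a list of 16 tip cell genes, of which 14 were measured. Of these, 4 were at least 1.5-fold higher in both libraries and none lower: Trp53i11, Nid2, Lxn, a carboxypeptidase inhibitor (101 CPM in db/db and salt and 108 CPM in db/+, against 53.0 and 62.0 CPM in others), and Rhoc, a GTPase of cell migration (525 and 596 CPM, against 295 and 365 CPM). The median log2 ratio over the list was 0.14 in db/db and salt and 0.29 in db/+, beside -0.02 and -0.03 over all genes. In the summed UMIs as deposited, Esm1, Cxcr4 and Dll4, genes often used to define tip cells, were near the level of other endothelial cells. Esm1, the tip cell proteoglycan endocan, was at 19.9 CPM in marker-positive cells of db/db and salt and 29.2 CPM in db/+, against 18.7 and 20.7 CPM in others. The chemokine receptor Cxcr4 was at 54.5 and 47.9 CPM (50.02 and 39.6 CPM in others), and the Notch ligand Dll4 at 117 and 99.8 CPM (122 and 98.2 CPM in others). Angpt2, the antagonist ligand of the receptor Tek, was at 35.0 CPM in db/db and salt and 32.0 CPM in db/+, against 22.5 and 20.7 CPM. Unc5b, a netrin receptor of tip cells, had log2 ratios of -0.56 and -0.34. The tip cell name thus holds for part of the list in the cells as a whole, and they are called by their markers.

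As deposited, Cxcr4 and Angpt2 were higher in cells with all 6 markers than in cells with just 3 in both libraries, and the intervals of Esm1 overlapped in db/db and salt and not in db/+. Whether the libraries differ in this was not tested. Esm1 was at 36.1 CPM (21.4 to 57.1) with 6 markers in db/db and salt and 112 CPM (86.8 to 142) in db/+, against 28.8 (22.4 to 36.5) and 16.4 CPM (12.3 to 21.4) with 3. Cxcr4 stood at 120.4 and 98.7 CPM with 6 markers, against 35.1 and 30.9 CPM with 3. Angpt2 was at 68.2 and 80.3 CPM with 6 markers, against 28.8 and 21.5 CPM with 3. The summed tip cell list was at 3318 CPM in db/db and salt and 3231 CPM in db/+ with 6 markers, against 2051 and 1925 CPM with 3. Cells with 6 markers were few, 22 and 31, with median depths of 18700 and 20185 UMIs, against 10576 and 11322 UMIs with 3. At 2000 UMIs per barcode these genes had 15 or fewer UMIs in each class, and the order was not detectable in db/db and salt. There Angpt2 had 5 UMIs with 4 or more markers (32.5 to 233 CPM) and 11 with 3 (50.8 to 182 CPM) in db/db and salt, and stood at 116 and 48.8 CPM in db/+. Cxcr4 was at 140.0 and 130 CPM in db/db and salt and 174 and 79.3 CPM in db/+, and Esm1 at 20.0 and 46.3 CPM in db/db and salt and 116 and 30.5 CPM in db/+, with wide overlapping intervals.

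Basement membrane genes were higher as a group. Of 15 measured, 5 were at least 1.5-fold higher in both libraries and 1, the laminin chain Lamb2, lower (-0.63 and -0.73), with medians of 0.54 in db/db and salt and 0.50 in db/+. Lama4 and Lamb1, chains of endothelial laminins, were at 307 and 244 CPM in marker-positive cells of db/db and salt and 289 and 213 CPM in db/+, against 185 and 152 CPM, and 184 and 122 CPM, in others. Col4a1, the main collagen of basement membrane, was at 3178 CPM in db/db and salt and 3284 CPM in db/+, against 2104 and 2186 CPM in others (0.59 and 0.59). Sparc, which binds collagen IV, was at 4164 and 4399 CPM, against 2824 and 3099 CPM (0.56 and 0.50, below the threshold). Without barcodes that carried UMIs of other cell types the count was 2 in place of 5, Nid2 and Col15a1. Actin and motility genes had 4 of 20 higher and none lower, with medians of 0.40 and 0.33: Tmsb10, Rhoc, Marcksl1, a cortical actin regulator (0.97 and 0.73), and the intermediate filament Vim (0.71 and 0.73).

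**Figure D4:**
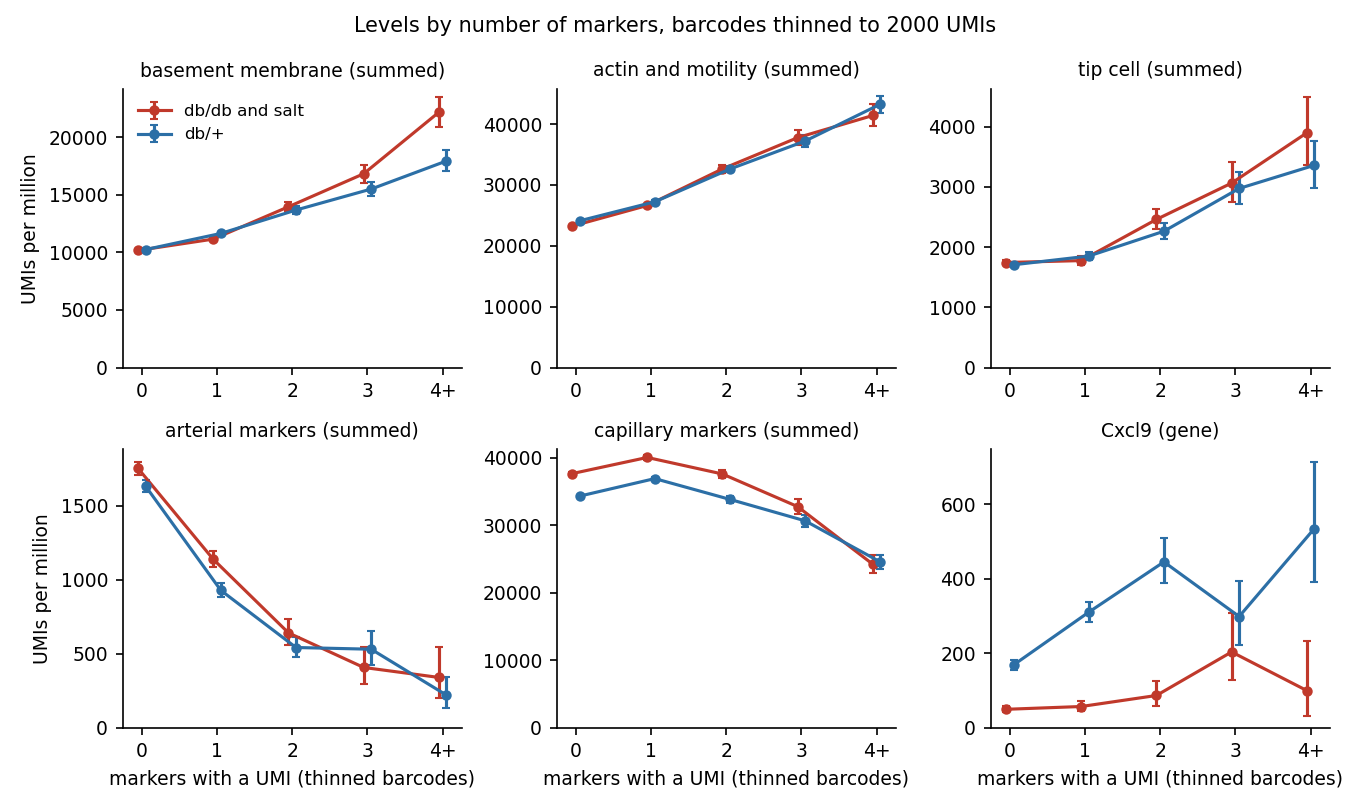
Level (CPM) of 5 summed gene lists and of Cxcl9, in endothelial barcodes reduced to 2000 UMIs and grouped by how many of the 6 markers had a UMI, with exact Poisson 95% intervals. Basement membrane, actin and tip cell sums are higher and the arterial sum lower with more markers in both libraries, and Cxcl9 is lower in db/db and salt at each number.

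Basement membrane genes kept their order at equal depth. In barcodes reduced to 2000 UMIs and grouped by 0, 1, 2, 3 and 4 or more markers, groups of 1659, 725, 167, 54 and 25 barcodes in db/db and salt and of 1787, 852, 238, 82 and 43 in db/+, the basement membrane sum was higher with each added marker. It was 10173, 11157, 13967, 16833 and 22180.0 CPM in db/db and salt, and 10248, 11648, 13681, 15506 and 17942 CPM in db/+. Nrp2 was at 286 CPM with no marker and 1080.0 CPM with 4 or more in db/db and salt, and at 316 and 837 CPM in db/+. Its highest level in db/+ was with 3 markers, at 939 CPM. Vim was at 1184 and 3900.0 CPM in db/db and salt and at 1566 and 4291 CPM in db/+ at the same ends. At the edge of the rule, unreduced barcodes with exactly 3 markers had 12350.0 CPM of basement membrane genes in db/db and salt and 13407 CPM in db/+, and those with exactly 2 had 10262 and 10766 CPM. There were 468 and 493 barcodes with exactly 2 markers.

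Arterial genes were the lowest group. Of 11 arterial markers 10 were measured, and all 10 were at least 1.5-fold lower in marker-positive cells of both libraries, with medians of -1.54 in db/db and salt and -1.60 in db/+. The other endothelial cells were not divided by vessel bed, so arterial cells among them were not set apart. Marker-positive cells reduced to 4000 UMIs held a median of 2 arterial UMIs in db/db and salt and 1 in db/+. Others held 4 and 3. The upper quartiles were 4 and 3 UMIs in marker-positive cells and 9 and 8 in others. The part of arterial cells in the lower levels was not tested. Fbln5, an elastic fibre protein, was at 21.8 CPM in marker-positive cells of db/db and salt and 13.4 CPM in db/+, against 146 and 136 CPM in others (log2 ratios -2.30 and -2.64). Gja4, the gap junction protein of arterial endothelium, was at 25.1 and 23.4 CPM, against 96.2 and 122 CPM. Sema3g, a semaphorin of arteries (-1.97 and -2.12), and Stmn2, a microtubule regulator (-1.77 and -2.21), stood with them, as did Sox17, a transcription factor of arterial fate (-0.95 and -1.03), and Hey1, a Notch target (-1.48 and -1.32). In barcodes reduced to 2000 UMIs the summed list was at 340.0 CPM with 4 or more markers in db/db and salt and 221 CPM in db/+, against 1750.5 and 1631 CPM with none. Other named genes that were lower, Clu, Eln, Mgp and Igfbp5, encode clusterin, elastin, matrix Gla protein and a binding protein of insulin-like growth factors, and the phosphatase Alpl was lower too, at log2 ratios between -1.58 and -2.34. A single barcode held 62.7% of the Igfbp5 UMIs of marker-positive cells in db/+ and 27.4% of those in db/db and salt.

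Among genes of other vessel beds, capillary ones were near the level of other endothelial cells, and several venous and endocardial ones were lower. Of 12 capillary markers, none was 1.5-fold apart, with medians of -0.06 in db/db and salt and 0.03 in db/+. Gpihbp1, which anchors lipoprotein lipase in capillaries, was at 1916 CPM in marker-positive cells of db/db and salt and 1978 CPM in db/+, against 1737 and 1607 CPM in others. The fatty acid binding protein Fabp4 was at 22400 and 22077 CPM, against 21425 and 20701 CPM. Reduced to 2000 UMIs, cells with 4 or more markers held less of the capillary list, 24220.0 CPM in db/db and salt and 24558 CPM in db/+, against 37644 and 34309 CPM with no marker. Marker-positive cells with a Pgf UMI likewise had 29713 CPM of it in db/db and salt and 26806 CPM in db/+, against 38266 and 36323 CPM in those without. The cells with a Pgf UMI also held more smooth muscle markers, 943 CPM in db/db and salt and 391 CPM in db/+, against 71.9 and 117 CPM in those without, and more pericyte markers, 1431 and 1771 CPM, against 748 and 693 CPM. Their arterial markers summed to 901 CPM in db/db and salt and 778 CPM in db/+. All marker-positive cells held 664 and 537 CPM of these, and other endothelial cells 1719 and 1589 CPM. A single barcode held 33.8% of the smooth muscle UMIs of all marker-positive cells in db/db and salt and 12.3% in db/+. The part of smooth muscle and pericyte transcripts in the capillary level was not tested. Of 9 venous markers 4 were lower in both libraries and 1, Nrp2, higher. The median log2 ratio was -0.50 in db/db and salt and -1.18 in db/+. The venous sum, Nrp2 included, differed less, at 1714 CPM in db/db and salt and 1484 CPM in db/+, against 1780 and 1756 CPM in others. Von Willebrand factor, Vwf, was at 45.5 and 25.7 CPM, against 125 and 126 CPM in others. Of 5 endocardial markers 3 were lower. Venous and endocardial cells among the other endothelial cells were likewise not set apart.

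The signalling genes around the ligands differed less. Aplnr, the apelin receptor, was at 313 CPM in marker-positive cells of db/db and salt and 343 CPM in db/+, against 210 and 241 CPM in others, log2 ratios of 0.56 and 0.49, below 1.5-fold. The adrenomedullin receptor Calcrl and its partners Ramp2 and Ramp3 had log2 ratios between -0.39 and 0.02. Of 15 VEGF and angiopoietin genes, Nrp2 was higher and Vegfc, Sox17 and Flt1 were lower. Flt1, which binds Pgf and restrains VEGF-A, was at 1170.0 CPM in db/db and salt and 913 CPM in db/+, against 1790.2 and 1493 CPM in others (-0.61 and -0.70). Kdr, the main VEGF receptor, had log2 ratios of -0.01 and 0.07. Of 12 Notch genes, Hey1 and the ligand Jag1 (-1.30 and -1.33) were lower. Of 16 TGF-beta and BMP genes 4 were lower, the inhibitors Smad6 (-1.20 and -1.22) and Smad7 (-0.68 and -0.71), the ligand Tgfb2 (-1.59 and -1.68) and the receptor Acvrl1 (-0.81 and -0.82). Of 20 glycolysis and hypoxia genes none was 1.5-fold apart, with medians of -0.01 in both libraries. Vegfa, a target of hypoxia-inducible factors, was at 16.6 CPM in db/db and salt and 13.5 CPM in db/+, against 17.8 and 14.7 CPM in others.

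Cycle genes were used by the rule, so cells that met every other condition but held UMIs of 3 or more of the 8 were counted apart. Among endothelial barcodes with at least 3 markers such cells were 6.65% (4.46 to 9.47%, 28 of 421) in db/db and salt and 14.0% (11.4 to 16.9%, 91 of 650) in db/+. With fewer than 3 markers they were 0.456% (11 of 2412) in db/db and salt and 1.78% (49 of 2752) in db/+. At equal depth the share with at least 3 markers was lower in db/db and salt by an amount that varied with the setting. Among barcodes of 8000 to 20000 UMIs it was 5.83% (3.23 to 9.59%) in db/db and salt and 11.6% (8.27 to 15.6%) in db/+, a log2 ratio of -0.99 with a counting SE of 0.44. Reduced to 4000 UMIs it was 7.56% (4.09 to 12.6%) in db/db and salt and 11.7% (8.06 to 16.1%) in db/+ (-0.62, SE 0.46), and to 2000 UMIs 6.98% (2.60 to 14.6%) and 8.76% (4.61 to 14.8%) (-0.33, SE 0.69). The db/db and salt share was the lower in 100 of 100 reductions to 4000 UMIs and in 72 of 100 to 2000. The reductions redraw UMIs of the same cells, so their agreement does not cover the counting error of cells. The intervals of the libraries overlapped at both depths. With fewer than 3 markers the shares at 2000 UMIs were 1.01% (0.66 to 1.47%) in db/db and salt and 2.74% (2.18 to 3.39%) in db/+. The log2 ratio with fewer than 3 markers was -1.44 (SE 0.32) at 2000 UMIs and -1.62 (SE 0.36) at 4000 UMIs. Among barcodes of 8000 to 20000 UMIs it was -2.30 (SE 0.78). The lower share in db/db and salt was thus not particular to cells with at least 3 markers. Genes outside the rule that serve replication and growth had 1 of 16 at least 1.5-fold higher in marker-positive cells, Odc1, the first enzyme of polyamine synthesis (158 CPM in db/db and salt and 85.8 CPM in db/+, against 62.9 and 49.7 CPM in others). Ccnd1, a cyclin of the G1 phase, was at 747 and 890.0 CPM, against 440.1 and 645 CPM.

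Between the libraries, marker-positive cells of db/db and salt had lower interferon and antigen presentation transcripts than those of db/+. Of 8218 genes measured, 101 (1.23%) were at least 1.5-fold lower in db/db and salt and 65 (0.791%) higher, with a median log2 ratio of 0.05 over all genes. Other scalings, which shift every ratio by -0.09, gave 129 lower and 44 higher (TMM) and 130 lower and 43 higher (median of ratios). Of 20 interferon response genes 18 were lower and none higher (median -1.11), and of 16 antigen presentation genes 15 were lower (median -1.10). Bst2, which tethers budding viruses, was at 265 CPM in db/db and salt and 1063 CPM in db/+ (log2 ratio -1.96). The interferon-inducible GTPase Iigp1 was at 114 and 585 CPM (-2.26), Igtp at 22.5 and 127 CPM (-2.07) and Gbp4 at 43.2 and 185 CPM (-1.88). Igtp overlaps Irgm2, and Gbp4 overlaps Gbp8 and Gbp9, on the same strand. Tap1, the peptide transporter of class I antigen presentation, was at 31.4 and 136 CPM (-1.82), and H2-Q7 stood at 41.0 CPM in db/db and salt and 328 CPM in db/+. It is a class I gene with near-identical relatives, H2-Q6 among them (29.5 CPM in db/db and salt and 150 CPM in db/+), so the value of each alone is uncertain. Other endothelial cells had the same counts in these lists, 18 of 20 and 15 of 16, with medians of -1.001 and -1.38, so the difference was no feature of marker-positive cells alone.

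Cxcl9, a chemokine that draws T cells and is induced by interferon gamma, was both higher in marker-positive cells and lower in db/db and salt. It was at 97.1 CPM (89.2 to 105) in marker-positive cells of db/db and salt and 382 CPM (368 to 395) in db/+, against 37.6 and 188 CPM in other endothelial cells. The log2 ratios of marker-positive over other cells were 1.17 in db/db and salt and 0.99 in db/+, and those of db/db and salt over db/+ were -1.87 in marker-positive and -2.05 in other cells. With cells reduced to 2000 UMIs, a Cxcl9 UMI was found in 18.7% of marker-positive cells in db/db and salt and 40.1% in db/+, in 6.76 and 20.0% of other endothelial cells, and in 0.165 and 1.47% of fibroblasts. The interferon list as a whole was not higher in marker-positive cells, with medians of -0.15 in db/db and salt and -0.09 in db/+ and none of 20 genes higher. Ccl2, a chemokine for monocytes, was higher in marker-positive cells too (24.0 CPM in db/db and salt and 34.7 CPM in db/+, against 1.22 and 8.57 CPM), but 61.6% of its UMIs in db/db and salt and 36.1% in db/+ lay in 1 barcode.

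Cd74, the invariant chain of class II molecules, was lower in db/db and salt in both kinds of endothelial cell. It was at 9.41 CPM in marker-positive cells of db/db and salt and 69.5 CPM in db/+ (log2 ratio -2.03), and at 8.91 and 297 CPM in other endothelial cells (-4.02). In db/db and salt 1 barcode held 88.9% of its UMIs in marker-positive cells, and without barcodes that carried UMIs of other cell types the ratio was -2.88. The added 10 CPM limits how low a ratio can come out at these levels, so the sizes of the 2 ratios are not compared. A Cd74 UMI was found in 1.02% of marker-positive cells in db/db and salt and 9.30% in db/+. The overlapping Mir5107 lies on the same strand.

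**Figure D5:**
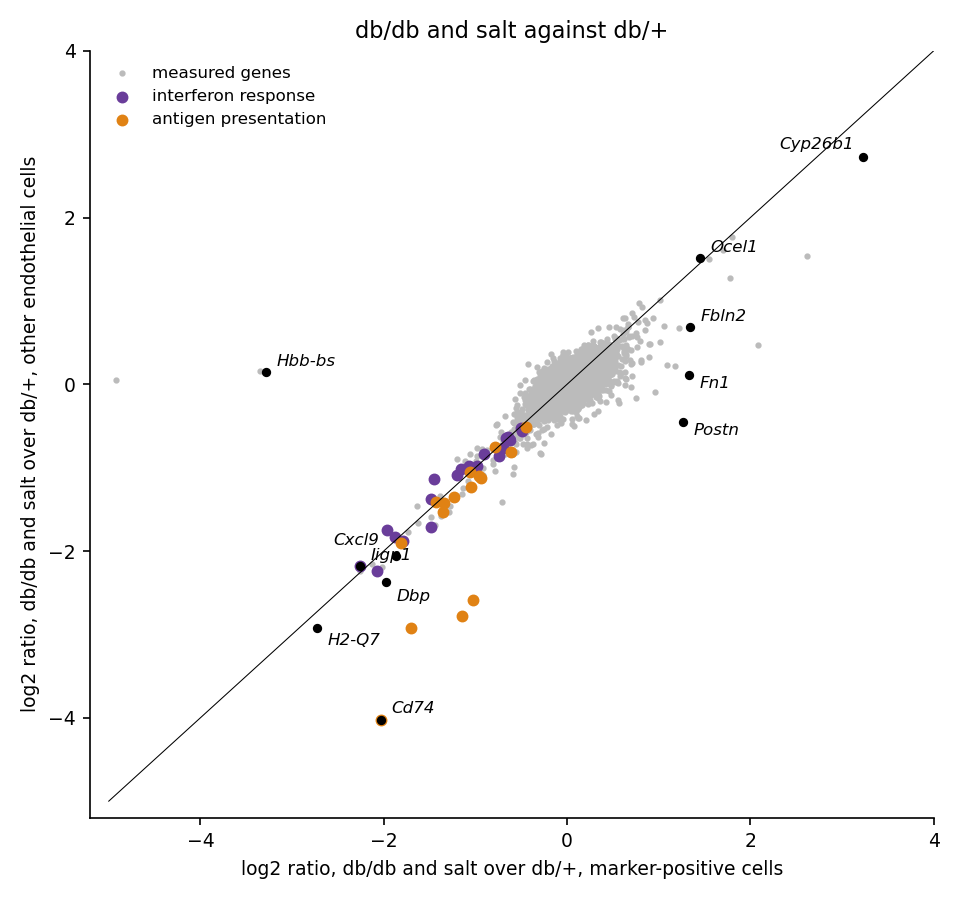
Log2 ratio of db/db and salt over db/+ for each measured gene in marker-positive cells (x axis) and in other endothelial cells (y axis), with the line of equal ratios. Most interferon and antigen presentation genes lie in the lower left, and Cyp26b1 lies at the upper right. Cd74 lies off the line, and 1 barcode and the added 10 CPM affect its ratio in marker-positive cells. What sets it off the line was not tested.

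Cyp26b1, the enzyme that breaks down retinoic acid, had the highest ratio of the named genes and was lowest in cells with the most markers. In marker-positive cells it was at 299 CPM (285 to 314) in db/db and salt and 22.9 CPM (19.8 to 26.5) in db/+, a log2 ratio of 3.23. In other endothelial cells it was at 368 and 47.1 CPM (2.73). In db/db and salt, unreduced cells with 0, 1, 2, 3, 4, 5 and 6 markers held 309, 369, 426, 369, 331, 214 and 54.2 CPM. In db/+ they held 36.1, 45.3, 61.4, 32.8, 22.4, 12.9 and 0 CPM. At 2000 UMIs per barcode the db/db and salt levels with 0 to 4 or more markers were 378, 413, 338, 194 and 140.0 CPM. The dividing endothelial cells with at least 3 markers that the rule set apart held 14.4 CPM in db/db and salt (28 cells) and 9.96 CPM in db/+ (91 cells).

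Other genes were higher in marker-positive cells of db/db and salt than of db/+. Ocel1, a gene with an occludin-like domain, was at 88.9 CPM in db/db and salt and 26.2 CPM in db/+ (1.45), Ccdc85b at 168 and 77.9 CPM (1.02), and Igfbp3, which binds insulin-like growth factors, at 162 and 79.6 CPM (0.94). Fbln2, a matrix protein (239 and 88.0 CPM, 1.34), and the monooxygenase Fmo2 (204 and 93.1 CPM, 1.06) were at higher levels in fibroblasts, 1848 and 1619 CPM of Fbln2 and 381 and 208 CPM of Fmo2. With cells reduced to 2000 UMIs and the rule applied again the ratio of Fmo2 was -0.36. Nr4a1, an immediate early receptor (0.85), and Trim37, a ubiquitin ligase (0.82), completed the list. Fn1 and Postn, fibronectin and periostin, were at 115.02 and 51.9 CPM in db/db and salt and 39.9 and 15.8 CPM in db/+ (1.33 and 1.26), but 1 barcode held 41.4% of the Fn1 and 56.4% of the Postn UMIs in db/db and salt. Without barcodes that carried UMIs of other cell types their ratios were 0.53 and 0.06. Of the 65 genes higher in marker-positive cells, 28 (43.1%) were also at least 1.5-fold higher in other endothelial cells, where 33 (0.402%) were and the 28 are 84.8%. Of the 101 lower genes 91 (90.1%) were lower there too, 80.5% of the 113 (1.38%) lower in other endothelial cells.

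The markers and the tip cell list differed little between the libraries in level. Log2 ratios of db/db and salt over db/+ in marker-positive cells were -0.10 for Apln, 0.08 for Adm, 0.33 for Kit, 0.06 for Mest, -0.33 for Pgf and -0.05 for Fscn1, none at 1.5-fold. Neither tip cell, actin, VEGF, Notch nor glycolysis and hypoxia genes had a member 1.5-fold apart, and of the basement membrane genes just Col15a1 was, at -0.59 in marker-positive and -1.08 in other cells. Of 10 clock genes 4 were lower in db/db and salt, among them Dbp (8.19 CPM in db/db and salt and 61.5 CPM in db/+) and Nr1d1 (12.4 and 59.7 CPM), outputs of the clock that vary with the time of day. The sources used here give no sampling times.

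Transcripts of other cell types were present in some marker-positive barcodes. At least 10 UMIs of pericyte, smooth muscle, heart muscle, leukocyte or fibroblast markers were found in 61 of 393 marker-positive cells of db/db and salt and 108 of 559 of db/+. In other endothelial cells the counts were 283 of 2401 and 312 of 2703, a smaller share in both libraries. A fixed cutoff is met more easily in a deep barcode, and the part of depth in this was not tested. Pericyte markers summed to 893 CPM in db/db and salt and 921 CPM in db/+, against 1559 and 1796 CPM in other endothelial cells. Smooth muscle markers summed to 257 and 175 CPM, against 680.1 and 589 CPM. Erythroid markers summed to 400.5 CPM in db/db and salt and 4639 CPM in db/+, against 3299 and 2992 CPM in others, and 6 and 9 barcodes held at least 10 such UMIs. Of 7 mast cell markers, which were checked because mast cells carry Kit, 5 were at 0 in db/db and salt and 6 in db/+. Cpa3, Tpsb2, Tpsab1, Fcer1a and Cma1 were at 0 in both. With 3 UMIs taken as its upper bound, in place of the Poisson interval, a count of 0 allows up to 0.523 and 0.376 CPM. The mast cell list summed to 13.2 CPM in db/db and salt and 21.2 CPM in db/+, against 10.5 and 24.6 CPM in other endothelial cells. Leukocyte markers summed to 5.05 and 6.90 CPM. Without the barcodes that carried at least 10 UMIs of these or of erythroid markers, 73 genes were higher and 128 lower in marker-positive cells. All 15 leading higher genes and all 10 leading lower genes were still past 1.5-fold then, as were all 10 lowest genes between libraries and 8 of the 10 highest, without Fn1 and Postn.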

How the data were processed

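Single-cell libraries were made from digested hearts by the 3′ v3.1 chemistry of 10x Genomics, per the labels' protocols. The authors deposited UMI counts that were not normalized, for each gene in each barcode, written by Cell Ranger 6.0.2 per the file headers. The submitters' processing notes name Cell Ranger, Seurat and GRCm38 (mm10); the sources used here do not say how barcodes were chosen.

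UMIs were summed over classes of cells in Python 3.11.15 with numpy 2.4.6 and scipy 1.17.1, and scaled to CPM. Genes with a mean of at least 10 CPM were counted, without the 22 genes of the rule. Barcodes were reduced by drawing 2000 or 4000 UMIs without replacement, 100 times for shares and once for levels. Shallower barcodes were left out. In db/db and salt and db/+, 169 and 305 endothelial barcodes held under 2000, and 839 and 1055 under 4000. Scrublet in scanpy 1.11.5 marked 47 (1.13%) and 76 (1.54%) barcodes, none of them marker-positive, and no doublets were removed. Scaling alternatives used edgeR 4.0.16 and DESeq2 1.42.0 with R 4.3.3. The ratio step was tested on simulated data.

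Named genes are the 15 highest and 10 lowest ratios of marker-positive over other cells of at least 50 CPM, by the smaller of both libraries' ratios, the 10 highest and 10 lowest between libraries of at least 50 CPM and 30 UMIs, a UMI in 5% of cells and 10% of the fibroblast level, up to 4 genes of each list, and the 6 markers; other list members and Lepr were named after their values were seen. The rule of the cells, the 34 gene lists and the alternatives were chosen with earlier results of these data known. Gene positions are GENCODE M21.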

Additional observations from a re-analysis of the deposited data

How the results depend on the processing

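No paired analysis was possible because each group is 1 library. Of 690 values for 45 gene ratios under alternatives, 489 stayed within counting error, 200 moved further and 1 changed sign, Fmo2 between libraries, at -0.36 with cells reduced to 2000 UMIs. The cause of each change was not tested, except where fewer UMIs, fewer cells or another pseudocount act by construction.

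The share's log2 ratio stayed below 0 in 19 settings, from -0.45 with cells reduced to 2000 UMIs to -0.066 with 2 markers needed in place of 3.
With 2 markers, 49 genes were higher and 90 lower in marker-positive cells, with 2 tip cell and 2 basement membrane genes higher and 2 venous genes lower. Median log2 ratios were then -1.34 for antigen presentation between libraries, -1.06 and -1.29 for arterial genes in db/db and salt and db/+, -0.018 for tip cell and -0.40 for venous genes in db/+. With 4 markers they were 0.56 for tip cell genes in db/+ and -2.07 for arterial genes in db/db and salt, and with at most 5% mitochondrial UMIs the arterial median in db/db and salt was -1.80.
Reduced to 2000 UMIs, which leaves few cells and counts, 1364 genes were higher and 1299 lower in db/db and salt, 251 were higher and 464 lower in marker-positive cells, and 8 tip cell genes were higher. Medians were -0.88 for antigen presentation, 0.77 and 1.07 for tip cell genes in db/db and salt and db/+, and 0.79, -2.37 and -0.87 for basement membrane, arterial and venous genes in db/db and salt. Cells with 4 or more markers were then 31.6 and 34.4% of marker-positive cells in db/db and salt and db/+, against 50.1 and 53.1%.
At 8000 to 20000 UMIs 272 genes were lower in marker-positive cells, and arterial and venous medians in db/db and salt were -1.81 and -1.05. Without barcodes holding UMIs of other types 2 basement membrane genes were higher; both settings were chosen after seeing the data.
With a pseudocount of 1 CPM, 163 genes were higher and 157 lower in db/db and salt and 120 higher in marker-positive cells, with medians of -1.38 for antigen presentation and -1.88 and -2.34 for arterial genes. With 50 CPM the counts were 20 and 53 between libraries and 19 and 65 between cells, with 2 tip cell and 1 basement membrane genes higher. Medians were then -0.79 for interferon, -0.75 for antigen presentation, -0.86 and -0.87 for arterial genes and -0.66 for venous genes in db/+. Over genes of at least 50 CPM the counts were 29 and 62 between libraries and 41 and 73 between cells. With median-of-ratios factors, which shift all ratios by -0.09, 43 genes were higher and 130 lower in db/db and salt, a split of higher to lower calls that leans further to lower; with TMM they were 44 and 129. Medians are called moved past 0.2.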

Other observations

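Some genes outside the groups above set marker-positive cells apart or differed within them. Among retinoic acid genes, Rbp7, a retinol binding protein of endothelium, was at 259 CPM in marker-positive cells of db/db and salt and 329 CPM in db/+, against 732 and 773 CPM in other endothelial cells (log2 ratios -1.46 and -1.21). Cxcl12, the ligand of Cxcr4, was at 1120 CPM in db/db and salt and 1115 CPM in db/+, against 2387 and 2267 CPM in others (-1.08 and -1.02). Edn1, the vasoconstrictor endothelin, was at 6.62 and 12.4 CPM, against 47.4 and 38.4 CPM (-1.79 and -1.11), and Gucy1a1, a subunit of the nitric oxide receptor, had ratios of -1.25 and -1.42. Cd34, a sialomucin of endothelium that is also used as a tip cell label, was at 817 and 896 CPM, against 522 and 578 CPM (0.64 and 0.62).

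H19, an imprinted RNA of fetal growth, was at 59.8 CPM in marker-positive cells of db/db and salt and 1.38 CPM in db/+, but 1 barcode held 77.0% of its UMIs in db/db and salt, and without barcodes that carried UMIs of other cell types its log2 ratio was 0.16. It was found in 3.31% of marker-positive cells in db/db and salt and 1.07% in db/+.

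Marker-positive cells with and without a given marker differed in more than that marker. In those with a Kit UMI, Trp53i11 was at 535 CPM in db/db and salt and 349 CPM in db/+, against 355 and 316 CPM in those without. In those with a Pgf UMI the tip cell list summed to 2803 CPM in db/db and salt and 2748 CPM in db/+, against 2140 and 2024 CPM in those without. Those with a Pgf UMI also held more smooth muscle and pericyte markers (943 and 1431 CPM in db/db and salt, against 71.9 and 748 CPM in those without; 391 and 1771 CPM in db/+, against 117 and 693 CPM), whose part was not tested. In db/db and salt 1 barcode held 33.8% of the smooth muscle UMIs of all marker-positive cells.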
